A study of Mus musculus with 22 samples.

Results

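Solute carriers, the Slc genes, encode the membrane proteins that move amino acids, sugars, metal ions, nucleosides and other small solutes into cells and between their compartments. The 159 solute carrier genes described here are those whose array probes carry a symbol starting with Slc and a digit and were detected, at a detection p below 0.01, on at least 2 arrays of their platform. On the 16 arrays of lines B18 and B20 this left 197 of 456 Slc probes, which stood for 146 of 9207 measured genes, and on the 6 arrays of lines B4 and C17 it left 173 of 568 Slc probes, or 133 of 11003 measured genes. Both sets held 120 of these genes, with 26 found in B18 and B20 alone and 13 in B4 and C17 alone. In B18 and B20, 116 of the 146 genes were detected on every array, and in B4 and C17 111 of the 133.

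The arrays measured total RNA of mouse embryonic stem cells grown in N2B27, a serum-free medium, with the cytokine LIF. The media differed in their inhibitors: R2i held PD0325901 (PD), which blocks the kinase MEK, and SB431542 (SB), which blocks the receptors through which TGF-beta, Activin and Nodal signal. The medium 2i held PD and CHIR99021 (CHIR), which blocks GSK3, and in the remaining media PD or SB was the only inhibitor. Lines B20 and B18, both from C57BL/6 blastocysts, were derived and kept in R2i and then passaged in the other media, so a medium other than R2i also meant a move from the medium of derivation; they gave 6 R2i arrays, 4 2i arrays and 6 PD arrays, with 3, 2 and 3 in each line. Line C17 came from BALB/c and line B4 from C57BL/6, each with 1 array in R2i, PD and SB, and the growth notes in the labels name B20 and B18 only. The labels do not say that replicate arrays came from separate cultures, so p-values measure the spread between arrays, which may be technical.

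Chip and array position limit several comparisons: each of B20 and B18 was on a chip of its own, so line and chip cannot be told apart, and a medium kept its array positions from chip to chip, so array position cannot be told apart from medium either. The C17 arrays in PD and SB carry a cell line label that names B4, while their titles and strain say C17 and BALB/c. The titles were followed. Of the 30 solute carrier genes that differed most between C17 and B4 in R2i, C17 in PD was closer to C17 in R2i for 27 and C17 in SB for 25, and B4 in PD was closer to B4 in R2i for 25 and B4 in SB for 23. Detected probes numbered 10822 to 11670 per array in B20 and B18, and 13591 to 14366 in C17 and B4; the number of arrays limits the precision. All 8 pluripotency markers examined, Pou5f1 and Nanog among them, were detected on every array of both sets. Their summed linear intensity was 37122 to 44856 in R2i, 47628 to 49733 in 2i and 50358 to 53721 in PD in B20 and B18, with no overlap between media. The brightest of them there was Dppa5a, with median log2 intensities of 14.13 in R2i, 14.62 in 2i and 14.67 in PD. Pou5f1, Sox2, Esrrb and Tdgf1 also had their lowest median in R2i. Nanog (12.20 against 12.04) and Klf4 (10.70 against 10.52) were higher in R2i than in 2i, and Zfp42 (10.22 against 9.99) higher in R2i than in PD. In C17 and B4 the sum was 32511 to 33967 in R2i, 36970 to 40516 in PD and 28763 to 31663 in SB. Of 7 primitive endoderm markers 4 were measured in B20 and B18 (Gata6, Sox7, Dab2 and Lamb1), with a summed linear intensity of 176 to 246 in R2i, 125 to 170 in 2i and 284 to 433 in PD. Sox7 was the brightest of them, with median log2 intensities of 6.81 in R2i, 6.03 in 2i and 7.86 in PD. Gata6 was at 4.93, 4.59 and 4.47 in the same media, Dab2 at 5.37, 4.47 and 5.38, and Lamb1 at 4.88, 5.04 and 5.37. Only 1 of the 4 was detected on every array, and Gata6 and Dab2 were detected on 0 2i arrays. The medians of Gata6, Dab2 and Lamb1 thus lie near or below the detection limit. Of 7 feeder fibroblast markers only Thy1 was measured, at 32.9 to 59.3 in R2i, 51.8 to 75.2 in 2i and 31.8 to 42.1 in PD. The part of the pluripotent state and of other cells in the results was not tested, and on bulk RNA fewer cells with a transcript and less of it per cell cannot be told apart. Some called genes passed the detection rule through arrays of the higher group alone and so had to differ: Slc7a9 in R2i, Slc40a1 in SB, Slc36a2 in B18, Slc2a4 in B20 within R2i, Slc2a6 in C17, and Slc5a1, Slc39a13 and Slc44a1 in B4. Slc38a5, called lower in R2i against PD and against 2i, passed the rule through 2i and PD arrays, with no R2i array detecting it. Heph, listed below as a partner of these carriers and called lower in R2i against 2i, passed through 2i and PD arrays of B20 alone. They stand in the counts of calls, but no test among the detected genes is given for them.

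Embryonic stem cells take up glucose mainly through facilitative carriers such as Slc2a1 and Slc2a3, and amino acids through sodium-coupled and exchange carriers of the Slc1, Slc6, Slc7 and Slc38 families. Zinc is moved in opposite directions by the Slc39 family, which brings it into the cytosol, and the Slc30 family, which takes it out. Metallothioneins bind zinc and copper in the cytosol, and their genes and Slc30a1 are known targets of the zinc-sensing factor MTF1. By substrate, the 146 genes of B20 and B18 comprised 26 for amino acids, 18 for metals (11 zinc, 4 iron, 2 copper, 1 magnesium), 10 for sugars and 92 for other solutes, among them 24 mitochondrial carriers, 19 carriers of ions and pH and 18 of nucleosides and nucleotide sugars. The 92 include 4 genes named after a transporter without being one (Slc4a1ap, Slc7a6os, Slc9a3r1 and Slc9a3r2).

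The lactate class was empty. Slc16a1, Slc16a7, Slc16a8 and Slc5a8, and on the C17 and B4 arrays Slc5a12, were detected on 0 arrays. Slc16a3, the lactate exporter of glycolytic cells, had 3 probes, none detected on more than 1 array, with raw intensities of 92.9 to 122 in B20 and B18 and 95.7 to 120 in C17 and B4, against means of 94.3 to 107 and 95.4 to 106 for the negative control beads. These levels lie at the background, so no lactate carrier could be compared. Slc40a1 (ferroportin, the only known cellular iron exporter) was at the background in B20 and B18 too, detected on 1 of 16 arrays with raw intensities of 90.5 to 121. Slc7a5, a large neutral amino acid exchanger, was not analysed here. In B20 and B18, the 3 Slc probes detected on exactly 2 arrays (Slc38a5, Slc7a11 and Slc7a9) had mean raw intensities of 110 to 114, and the 22 detected on exactly 1 array 106 to 116. In C17 and B4 the 6 probes detected on 2 arrays, for Slc15a4, Slc20a1, Slc25a30, Slc39a13, Slc40a1 and Slc4a8, lay at 117 to 160, and the 16 detected on 1 array at 108 to 119.

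R2i against PD in B20 and B18 shows what went with adding SB to PD. Both copper carriers, 3 of 7 zinc importers of the Slc39 family, the glucose carriers Slc2a1 and Slc2a3 and the vesicular carrier Slc32a1 were lower in R2i, while Slc38a8, Slc38a4 and Slc11a1 were higher. At an adjusted p below 0.05 in limma, with Benjamini-Hochberg adjustment over all genes, 12 of 146 solute carriers were higher and 23 lower, where 9.23% of all genes tested were higher and 9.58% lower. Only Slc32a1 changed 2-fold, against 0.717% of all genes. Within a line, and so within a chip, 12 solute carriers were called in B20 (9.29% of all genes) and 31 in B18 (15.1%). Amino acid carriers split evenly, with 5 higher and 5 lower of 26 and a median log2 change of 0.01, the same as the 0.01 of all genes. Of the 18 metal carriers 1 was higher and 5 were lower (median -0.14), and of the 10 sugar carriers 0 were higher and 3 lower (median -0.17). The other solutes had 6 higher and 10 lower of 92 (median 0.01).

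R2i against 2i, where SB takes the place of CHIR beside PD, had more calls. Here 14 solute carriers were higher and 35 lower, where 14.2% of all genes tested were higher and 13.4% lower. Within a line, 29 were called in B20 (15.3% of all genes) and 27 in B18 (18%). Metal carriers were lower more often than higher, with 9 lower and 2 higher of 18 and a median log2 change of -0.25, against 0.01 over all genes. Within them, 6 of 11 zinc carriers were lower and 1 higher, both copper carriers and the magnesium carrier Slc41a3 were lower, and of 4 iron carriers Slc11a1 was higher. Amino acid carriers had 4 higher and 7 lower of 26 (median -0.01), sugar carriers 1 higher and 1 lower of 10 (median 0.03), and the other solutes 7 higher and 18 lower of 92 (median -0.05). In 2i against PD, where CHIR was added, 18 solute carriers were higher and 17 lower, with 11.4% of all genes tested higher and 12.2% lower. Of metal carriers only Slc39a11 was called, as higher, while 3 of 10 sugar carriers were lower and 0 higher, and amino acid carriers had 4 higher and 6 lower of 26. These 3 comparisons share arrays, so their values for a gene are not independent. The change itself differed between B20 and B18 for 9 solute carriers in R2i against PD (4.27% of all genes), 0 in R2i against 2i (1.35%, with 16 solute carriers, and 13.9% of all genes, at an unadjusted p below 0.05 in limma) and 6 in 2i against PD (1.72%).

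**Figure D1:**
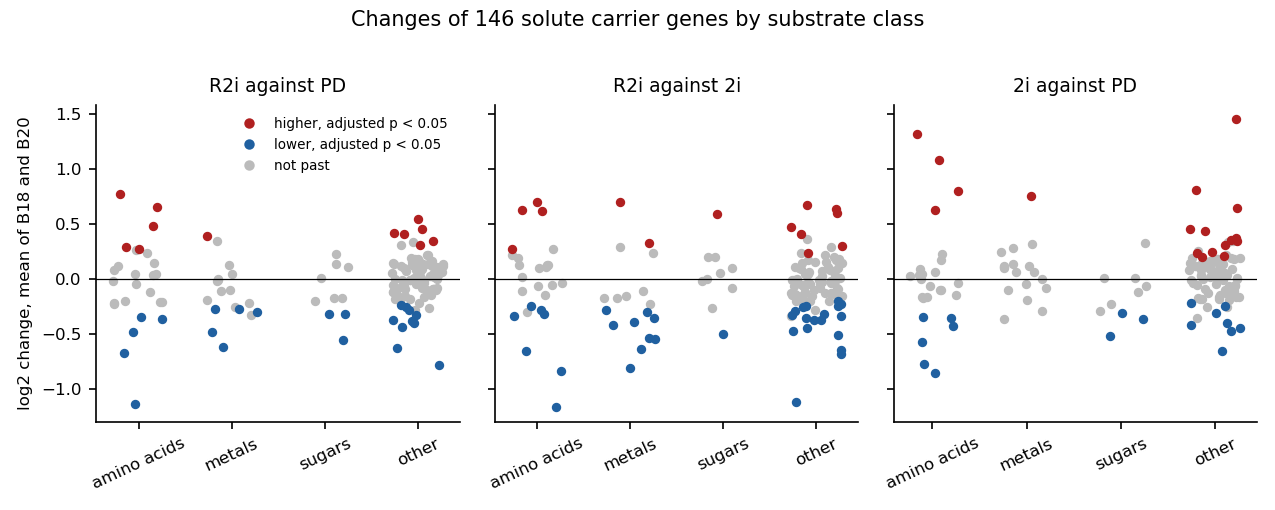
The 146 solute carrier genes of lines B20 and B18 by substrate class, with the log2 change (mean of both lines) on the vertical axis for R2i against PD, R2i against 2i and 2i against PD; each point is a gene, red or blue where it was higher or lower at an adjusted p below 0.05 and grey otherwise. In R2i against 2i, 9 of 18 metal carriers are blue and 2 red.

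Among metal carriers, Slc30a1, the exporter that carries zinc out through the plasma membrane, was higher in R2i against 2i. In the same comparison 4 of 7 Slc39 importers and 2 of 4 Slc30 genes were lower. The promoters of Slc30a1 and of the metallothionein genes Mt1 and Mt2, known targets of MTF1, are shown. Each runs from 250 bases before to 50 after the annotated start and comes from RefSeq on GRCm38.p6, plus strand. They lie at chr1:191906531-191906830 for Slc30a1, chr8:94178839-94179138 for Mt1 and chr8:94172368-94172667 for Mt2. The motifs marked are of the metal response element type. Capitals mark matches to the core letters TGCACNC or TGCGCNC on either strand, which do not overlap one another.
Slc30a1: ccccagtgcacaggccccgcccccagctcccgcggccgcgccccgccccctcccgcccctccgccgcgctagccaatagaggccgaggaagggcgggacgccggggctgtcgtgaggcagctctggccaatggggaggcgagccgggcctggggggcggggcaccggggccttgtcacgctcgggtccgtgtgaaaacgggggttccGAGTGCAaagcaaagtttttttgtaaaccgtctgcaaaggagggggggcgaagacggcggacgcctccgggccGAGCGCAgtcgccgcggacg
Mt1: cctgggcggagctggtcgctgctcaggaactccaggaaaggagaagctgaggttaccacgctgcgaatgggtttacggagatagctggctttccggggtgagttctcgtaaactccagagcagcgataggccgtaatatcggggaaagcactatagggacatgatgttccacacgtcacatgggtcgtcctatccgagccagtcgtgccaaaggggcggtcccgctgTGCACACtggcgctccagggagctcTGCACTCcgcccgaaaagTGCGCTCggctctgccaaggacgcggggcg
Mt2: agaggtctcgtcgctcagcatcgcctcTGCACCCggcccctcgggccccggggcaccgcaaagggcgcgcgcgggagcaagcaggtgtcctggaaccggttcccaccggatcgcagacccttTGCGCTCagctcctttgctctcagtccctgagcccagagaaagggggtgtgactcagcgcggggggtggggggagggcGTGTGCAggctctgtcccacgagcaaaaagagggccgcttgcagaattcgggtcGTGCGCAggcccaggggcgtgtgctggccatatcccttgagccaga
A script found 2 matches in the Slc30a1 window, 3 in Mt1 and 4 in Mt2. Of all 32851 promoters of this length 25.7% held at least 1 match and 7.114% held 2 or more, and of the 16 promoters matched to 14 of the 18 metal carrier genes 43.75% held at least 1 and 6.25%, the Slc30a1 window alone, 2 or more. A match describes the letters of the window and shows no binding. Mtf1, the gene of MTF1, had median log2 intensities of 5.09 in R2i, 5.08 in 2i and 5.21 in PD, near the detection limit. A part of MTF1 in these results was not tested.

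Slc30a1 had a normalised log2 intensity of 6.07 at the lowest, 6.18 at the median and 7.31 at the highest in the 6 R2i arrays, against 5.11 and 5.72 in B20 and 6.17 and 5.64 in B18 in 2i, and 5.54, 6.01 and 6.56 in PD. The highest R2i value came from the first B20 array, the other 5 R2i arrays lay at or below 6.36, and the lowest overlapped the 2i and PD arrays. Against 2i the log2 change was 0.71 ± 0.19 (SE, adjusted p = 0.011), with 1.08 in B20 and 0.33 in B18, and the call was lost without the first B20 2i array (0.55, adjusted p = 0.076) or the second B18 2i array (0.57, adjusted p = 0.070). Against PD it was 0.34 (adjusted p = 0.19), with 0.04 in B20 and 0.65 in B18. In 2i against PD the lines pointed opposite ways, with -1.05 in B20 and 0.33 in B18 (adjusted p = 0.19 for the mean and 0.080 for the difference between the lines).

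As the mean of both lines, the metallothionein genes were higher in R2i than in either other medium. Within B18 alone neither Mt1 (0.29, adjusted p = 0.081) nor Mt2 (0.46, adjusted p = 0.20) passed against 2i in limma. Mt2 ranged over 8.04, 8.52 and 9.06 (lowest, median, highest) in R2i, against 6.53 and 7.28 in B20 and 8.40 and 8.37 in B18 in 2i, and 7.38, 7.79 and 8.24 in PD. Its change was 0.79 ± 0.15 against PD (SE, adjusted p = 0.0013) and 0.90 ± 0.17 against 2i (SE, adjusted p = 6.9e-04), larger against PD in B18 (1.17) than in B20 (0.40) and larger against 2i in B20 (1.35) than in B18 (0.46). These differences between the lines did not pass the test (adjusted p = 0.17 and 0.23). Mt1, which for R2i against 2i was named after its values were seen, ranged over 14.24, 14.46 and 14.56 in R2i, against 13.68 and 14.11 in B20 and 14.26 and 14.26 in B18 in 2i, and 13.82, 14.04 and 14.24 in PD, with changes of 0.40 against PD (adjusted p = 7.6e-04) and 0.35 against 2i (adjusted p = 0.0034). The R2i change of Mt1 against PD was larger in B18 (0.68) than in B20 (0.11), and that difference passed (-0.57, adjusted p = 0.033). In 2i against PD both genes were lower in B20 (-0.29 for Mt1 and -0.95 for Mt2) and higher in B18 (0.39 and 0.71), and the difference between the lines passed for each (adjusted p = 0.040 and 0.020). For both genes the R2i arrays overlapped those of the other media at the edges.

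Of 7 zinc importers of the Slc39 family 4 were lower and 0 higher in R2i against 2i (13.4% of all genes lower), and 3 were lower and 0 higher in R2i against PD (9.58% of all genes lower). Slc39a4, an importer of the plasma membrane, had 9.65, 9.95 and 10.25 in R2i (lowest, median, highest), against 11.27 and 10.22 in B20 and 10.91 and 10.67 in B18 in 2i, and 10.04, 10.51 and 10.58 in PD. It was lower in R2i than in 2i by a log2 change of -0.80 ± 0.15 (SE, adjusted p = 7.0e-04) and lower than in PD by -0.48 (adjusted p = 0.018), with overlapping arrays in both. Slc39a11, a member of the same family found on internal membranes, had 8.11, 8.29 and 8.64 in R2i, against 9.13 and 8.76 in B20 and 8.97 and 9.02 in B18 in 2i, and 8.10, 8.23 and 8.26 in PD. Every 2i array was above every array of the other media, and the change was -0.63 ± 0.07 for R2i against 2i (SE, adjusted p = 7.6e-06) and 0.76 ± 0.07 for 2i against PD (SE, adjusted p = 1.6e-06), and R2i against PD gave 0.13 (adjusted p = 0.20). Slc39a6, an importer of the plasma membrane, had 7.40, 7.61 and 7.70 in R2i, against 8.02 and 8.01 in B20 and 8.14 and 7.86 in B18 in 2i, and 7.73, 7.87 and 8.10 in PD. Here every R2i array was below every other array, with changes of -0.42 against 2i (adjusted p = 0.0012) and -0.30 against PD (adjusted p = 0.0099). Slc39a13 was lower in R2i against 2i (-0.28) and against PD (-0.27), and of the exporter family Slc30a7 (-0.35) and Slc30a6 (-0.30), which load zinc into the secretory pathway, were lower in R2i against 2i. Of 4 Slc30 genes 2 were lower and 1 higher in that comparison. With probes tested singly in limma, the second Slc30a7 probe gave -0.12 in R2i against 2i (adjusted p = 0.43). A second, dimmer Slc39a13 probe, detected on 6 arrays, gave 0.09 against 2i (adjusted p = 0.61) and -0.15 against PD (adjusted p = 0.35).

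Both copper carriers were lower in R2i. Slc31a2, which acts on copper in endosomes, had 5.49, 5.76 and 6.22 in R2i, against 6.19 and 6.34 in B20 and 6.30 and 6.48 in B18 in 2i, and 6.34, 6.40 and 6.48 in PD. All R2i arrays were below all PD arrays, with a change of -0.62 ± 0.09 (SE, adjusted p = 9.9e-05), and against 2i the change was -0.54 (adjusted p = 6.5e-04) with a slight overlap. Slc31a1, the main copper importer, had 8.44, 8.69 and 8.73 in R2i, against 9.12 and 8.85 in B20 and 9.17 and 8.98 in B18 in 2i, and 8.69, 8.92 and 9.08 in PD. R2i lay below every 2i array (-0.39, adjusted p = 0.0026) and overlapped PD (-0.27, adjusted p = 0.019), a call lost without any of 3 single arrays (adjusted p = 0.050 without the first B20 PD array, 0.057 without the first B18 R2i array and 0.053 without the second B18 PD array). Slc41a3, a magnesium carrier, had 6.16, 6.43 and 6.65 in R2i, against 6.91 and 6.70 in B20 and 7.01 and 7.29 in B18 in 2i, with no overlap and a change of -0.54 ± 0.10 (SE, adjusted p = 7.2e-04).

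Slc11a1, a proton-driven carrier of iron and other divalent metals known from phagosomes, was the metal carrier higher in R2i against both media. It had 10.76, 10.85 and 11.26 in R2i, against 10.76 and 10.84 in B20 and 10.48 and 10.33 in B18 in 2i, and 10.37, 10.53 and 10.73 in PD. All R2i arrays were above all PD arrays (0.39, adjusted p = 0.0013) and overlapped 2i (0.33, adjusted p = 0.0074). Of 21 genes listed as partners of these carriers, 15 were measured in B20 and B18, and 6 were higher and 2 lower in R2i against PD, where 9.23% of all genes were higher and 9.58% lower. Besides the metallothioneins these included Tfrc, the transferrin receptor (0.39, adjusted p = 0.0018), and Hmox1, which releases iron from heme (0.41, adjusted p = 0.0026), both without overlap between the arrays. In R2i against 2i 2 partners were higher and 5 lower (14.2% and 13.4% of all genes). The lower ones include Heph, a copper-dependent iron oxidase detected on 0 of 6 R2i arrays and 2 of 4 2i arrays, both of B20. In B18 it was detected in neither of these media. Its 3 detected arrays were all of B20 and none was in R2i, so the detection rule favoured a lower value in R2i. Over both lines Heph was at least 1.25-fold lower in R2i, with the undetected B18 2i arrays (4.98 and 5.16) in the mean. A bound of this kind sets the brighter group against the dimmest detectable signal.

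**Figure D2:**
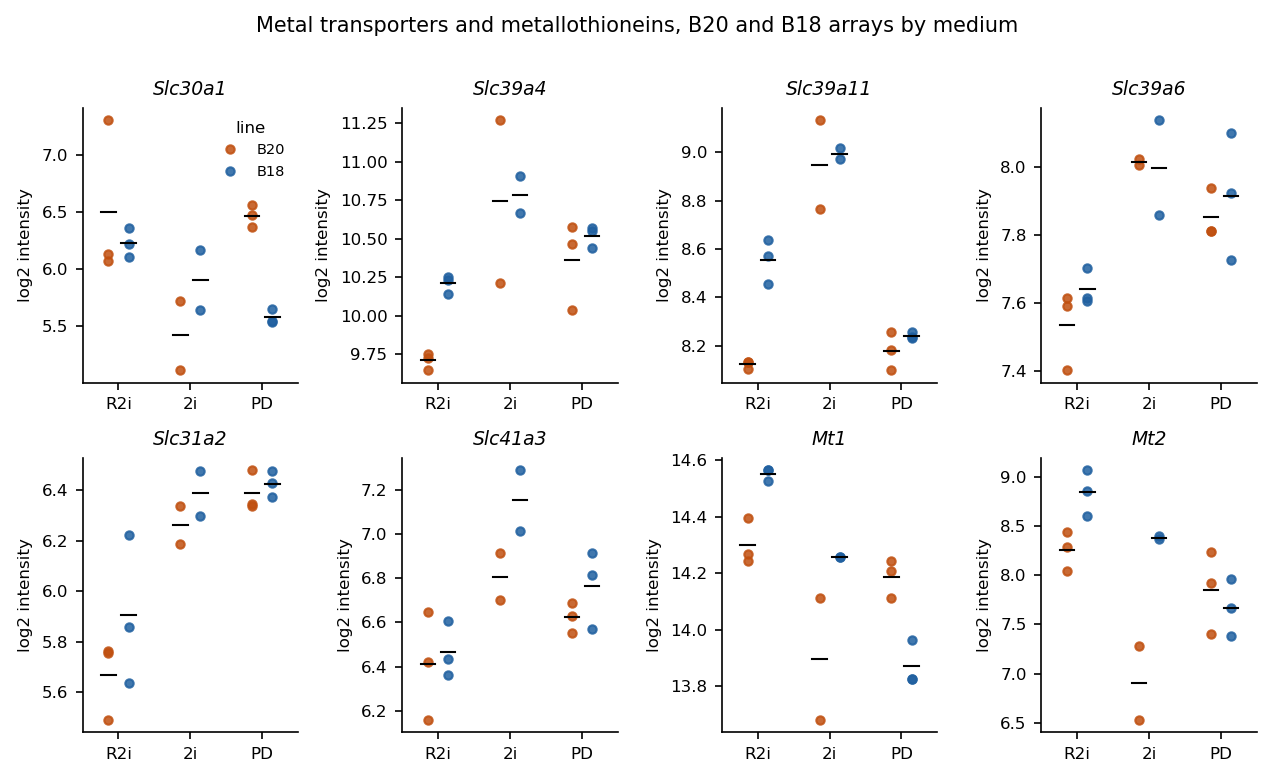
Normalised log2 intensity of 6 metal carriers and of Mt1 and Mt2 on each array of lines B20 (orange) and B18 (blue) in R2i, 2i and PD; points are arrays and black bars are means per line and medium. The 4 2i arrays of Slc39a11 lie at 8.76 to 9.13, above all others, and the 6 R2i arrays of Slc39a6 at 7.40 to 7.70, below all others.

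Among amino acid carriers, Slc32a1, which loads GABA and glycine into synaptic vesicles, differed most in R2i against PD. Its log2 intensity was 6.83, 6.87 and 7.08 in R2i (lowest, median, highest), against 6.96 and 7.16 in B20 and 7.25 and 7.37 in B18 in 2i, and 7.45, 8.02 and 8.73 in PD. Every PD array was above every array of the other media, and the R2i and 2i arrays overlapped. R2i against PD gave -1.13 ± 0.06 (SE, adjusted p = 2.7e-09), a 2.19-fold difference, and 2i against PD gave -0.85 ± 0.07 (SE, adjusted p = 3.1e-07). Both changes were larger in B18 (-1.62 and -1.28) than in B20 (-0.64 and -0.43), and the difference between the lines passed the test for each (0.97, adjusted p = 4.6e-04, and 0.85, adjusted p = 0.0061). Slc6a15, a neutral amino acid carrier, was likewise highest in PD, with 6.81, 7.31 and 7.67 in R2i, against 7.01 and 7.59 in B20 and 7.09 and 6.93 in B18 in 2i, and 7.72, 7.86 and 8.18 in PD. Its PD arrays again lay above all others, with -0.67 for R2i against PD (adjusted p = 1.4e-04) and -0.77 for 2i against PD (adjusted p = 8.7e-05). A second, dimmer Slc6a15 probe, detected on 12 arrays, gave -0.18 for R2i against PD (adjusted p = 0.24 in limma with probes tested singly).

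Carriers of the Slc38 family, which take up small neutral amino acids with sodium, moved in both directions. Slc38a4 had 5.02, 5.67 and 5.92 in R2i, 6.35 and 6.29 in B20 and 6.63 and 6.34 in B18 in 2i, and 4.72, 5.10 and 5.54 in PD, and was detected on 5 of 6 R2i, 4 of 4 2i and 2 of 6 PD arrays. The 2i arrays were above all others, with a log2 change of 1.32 ± 0.11 for 2i against PD (SE, 2.49-fold, adjusted p = 3.2e-07) and -0.83 for R2i against 2i (adjusted p = 3.1e-05), and R2i against PD gave 0.48 (adjusted p = 0.0025). Slc38a8 had 5.24, 5.72 and 6.14 in R2i, 5.74 and 5.76 in B20 and 6.28 and 6.27 in B18 in 2i, and 4.64, 4.85 and 5.32 in PD, where it was detected on 2 of 6 arrays. It was higher with a second inhibitor of either kind, by 0.77 for R2i against PD (adjusted p = 1.5e-06) and 1.09 for 2i against PD (adjusted p = 1.5e-07), the second without overlap. Slc38a2, which is known to rise when amino acids are scarce, had 11.22, 11.39 and 11.56 in R2i, 10.88 and 10.95 in B20 and 10.82 and 10.09 in B18 in 2i, and 10.95, 11.06 and 11.35 in PD. Its 2i arrays were the lowest, overlapping neither medium, with 0.70 for R2i against 2i (adjusted p = 3.1e-04) and -0.43 for 2i against PD (adjusted p = 0.014).

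Further amino acid carriers differed between the media. Slc6a7, a proline carrier, had 4.96, 5.36 and 5.67 in R2i, 6.56 and 6.71 in B20 and 6.73 and 6.19 in B18 in 2i, and 5.37, 5.68 and 6.33 in PD. It was lower in R2i than in 2i by -1.16 ± 0.12 (SE, 2.23-fold, adjusted p = 3.1e-06) with no overlap, and higher in 2i than in PD by 0.80 (adjusted p = 2.0e-04) with overlap. Slc6a9, a glycine carrier, went the other way, with 7.75, 8.10 and 8.43 in R2i, 7.57 and 7.96 in B20 and 7.40 and 6.97 in B18 in 2i, and 7.60, 8.07 and 8.35 in PD. It was higher in R2i than in 2i (0.62, adjusted p = 1.3e-04) and lower in 2i than in PD (-0.57, adjusted p = 4.0e-04), with overlap between the media and none within B20 or within B18 for R2i against 2i. Slc7a8, an exchanger of neutral amino acids, was higher in 2i than in PD (0.63, adjusted p = 5.4e-05), where it was detected on 4 of 4 and 1 of 6 arrays. Slc7a9, a cystine exchanger, was detected on 2 B18 R2i arrays and passed the detection rule through them alone. Its log2 intensity was 5.37, 5.69 and 5.09 in B18 and 4.71, 4.50 and 5.02 in B20 in R2i, against 4.35 to 4.55 in 2i and 4.34 to 4.52 in PD. It was not detected in 2i or PD, so no fold and no test are given.

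The glucose carriers Slc2a1 and Slc2a3 were highest in PD. Slc2a1 had 10.34, 10.56 and 10.74 in R2i (lowest, median, highest), 10.61 and 10.25 in B20 and 10.23 and 10.34 in B18 in 2i, and 10.30, 10.85 and 11.45 in PD. The PD arrays spread over the values of the other media and beyond them, with 10.30, 10.68 and 10.65 in B20 and 11.02, 11.17 and 11.45 in B18. R2i against PD gave -0.31 ± 0.09 (SE, adjusted p = 0.020), with -0.12 in B20 and -0.51 in B18, and 2i against PD gave -0.52 ± 0.10 (SE, adjusted p = 0.0012), with -0.11 in B20 and -0.92 in B18. The first call was lost without the third B20 R2i array (adjusted p = 0.051), the second B20 PD array (adjusted p = 0.052) or the third B18 PD array (adjusted p = 0.061). R2i against 2i gave 0.20 (adjusted p = 0.14). Slc2a3 had 13.01, 13.09 and 13.18 in R2i, 13.43 and 12.93 in B20 and 13.09 and 12.95 in B18 in 2i, and 13.20, 13.41 and 13.57 in PD. Every R2i array was below every PD array (-0.32, adjusted p = 0.0086), and 2i overlapped PD (-0.31, adjusted p = 0.017, and 0.11 without the second B20 2i array or 0.074 without the second B18 2i array).

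Of the remaining sugar carriers, Slc45a4, from the family of proton-linked sugar carriers, was the 1 higher in R2i against 2i. It had 7.99, 8.12 and 8.27 in R2i, against 7.82 and 7.33 in B20 and 7.66 and 7.38 in B18 in 2i, with no overlap and a change of 0.59 (adjusted p = 1.1e-04). Slc37a1 and Slc37a4, exchangers of glucose 6-phosphate in the endoplasmic reticulum, stood near the detection limit. Slc37a1 was lower in R2i against PD (-0.55, adjusted p = 0.018), detected on 2 of 6 and 5 of 6 arrays, and the call was lost without the second B18 R2i array (adjusted p = 0.053) or the first B20 PD array (adjusted p = 0.052). Slc37a4 was lower in R2i against 2i (-0.50, adjusted p = 0.0070), detected on 1 of 6 and 3 of 4 arrays. Among partner genes of sugar and lactate carriers, 2i against PD gave higher Hk1, a hexokinase (0.63, adjusted p = 0.0034), Ldha, a subunit of lactate dehydrogenase (0.56, adjusted p = 0.0014), and Txnip, an inhibitor of glucose uptake (0.49, adjusted p = 0.018), and lower Emb, a chaperone of lactate carriers (-0.57, adjusted p = 5.6e-05). Ldha changed by 1.14 in B20 and -0.02 in B18, and that difference between the lines passed in limma (1.15, adjusted p = 0.016). Hk1 changed by 1.06 in B20 and 0.21 in B18, a difference that did not pass (adjusted p = 0.13). Txnip (0.51 and 0.48) and Emb (-0.55 and -0.59) changed by similar amounts in B20 and B18. In all 9 of the 15 measured partners were higher and 1 lower in 2i against PD, against 11.4% and 12.2% of all genes.

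**Figure D3:**
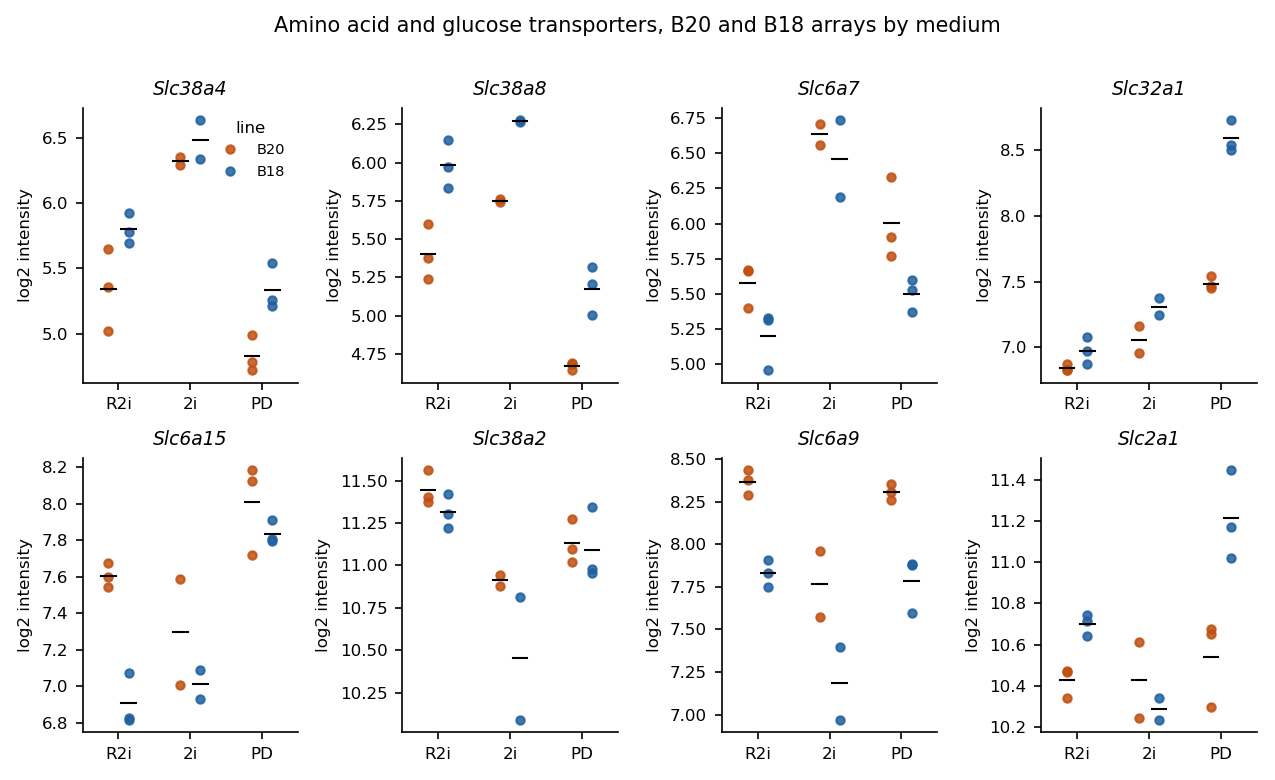
Normalised log2 intensity of 7 amino acid carriers and the glucose carrier Slc2a1 on each array of lines B20 (orange) and B18 (blue) in R2i, 2i and PD; points are arrays and black bars are means per line and medium. The 6 PD arrays of Slc32a1 lie at 7.45 to 8.73, above all others, and the 4 2i arrays of Slc38a4 at 6.29 to 6.63, above all others.

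Among carriers of other solutes, Slc12a8, of the cation-chloride cotransporter family, showed the largest change of any solute carrier in 2i against PD. It had 6.46, 6.76 and 6.98 in R2i, 7.62 and 7.56 in B20 and 8.02 and 8.26 in B18 in 2i, and 5.71, 6.64 and 6.96 in PD. The 2i arrays were above all others, with 1.45 ± 0.14 for 2i against PD (SE, 2.74-fold, adjusted p = 1.2e-06) and -1.12 ± 0.14 for R2i against 2i (SE, 2.17-fold, adjusted p = 1.3e-05). Slc46a3, a lysosomal carrier related to the folate carrier, was also highest in 2i, with 6.91, 7.15 and 7.32 in R2i, 7.46 and 7.45 in B20 and 8.26 and 8.12 in B18 in 2i, and 6.66, 6.99 and 7.33 in PD. No 2i array overlapped the others, with -0.68 for R2i against 2i (adjusted p = 3.2e-05) and 0.81 for 2i against PD (adjusted p = 6.8e-06). Slc12a2, a sodium, potassium and chloride cotransporter, was lowest in 2i, with 0.60 for R2i against 2i (adjusted p = 6.1e-05).

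The Slc29 family, which carries nucleosides down their gradient, was named after its values were seen. Of its 4 measured genes 3 were lower in R2i against PD, where 9.58% of all genes were lower, and 3 in R2i against 2i, where 13.4% were. Slc29a1 changed by -0.37 and -0.47, Slc29a3 by -0.38 and -0.50, and Slc29a4, which also carries monoamines, by -0.39 and -0.64. Slc29a4 had 6.23, 6.38 and 6.70 in R2i, 7.08 and 7.03 in B20 and 6.98 and 7.07 in B18 in 2i, and 6.53, 6.88 and 6.93 in PD, with R2i below every 2i array and overlapping PD. Slc28a1, which takes up nucleosides with sodium, went the other way against 2i (0.64, adjusted p = 3.1e-04). Slc44a1, a choline carrier, had 6.12, 6.29 and 6.49 in R2i, against 6.74, 6.92 and 7.08 in PD, with no overlap and a change of -0.62 (adjusted p = 1.6e-04). That change rests on 1 probe. The second Slc44a1 probe, also detected on all 16 arrays, gave -0.08 (adjusted p = 0.65 in limma with probes tested singly). Slc4a1, the anion exchanger of red blood cells, was higher in R2i against PD (0.54, adjusted p = 9.2e-04) and against 2i (0.67, adjusted p = 2.4e-04). Slc25a20, the mitochondrial carrier of acylcarnitines, was higher in R2i against PD (0.45, adjusted p = 2.6e-04), where 1 of 24 mitochondrial carriers was higher and 2 lower. Slc9a3r2, a scaffold protein and no transporter, had 6.61, 7.08 and 7.67 in R2i, against 7.78, 7.92 and 8.11 in PD, with no overlap and a change of -0.78 (adjusted p = 1.5e-06).

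Between the lines, B20 had 23 solute carriers higher and 34 lower than B18 over the 3 media, with 15.7% of all genes tested higher and 17.3% lower, and 0 changed 2-fold (0.0217% of all genes). Within 1 medium the lines differed in 28 solute carriers in R2i (20.3% of all genes), 9 in 2i (4.83%) and 34 in PD (15.4%). The 2i test had 2 arrays per line and the others 3, so these counts do not rank the media. Amino acid carriers were 7 higher and 6 lower of 26, metal carriers 2 and 2 of 18, sugar carriers 1 and 4 of 10, and the others 13 and 22 of 92. Slc1a1, a glutamate carrier, lay at 6.10 to 6.48 on the 8 B20 arrays and at 5.28 to 5.92 on the 8 B18 arrays, a change of 0.65 ± 0.07 (SE, adjusted p = 1.7e-05). Slc25a11, the mitochondrial oxoglutarate carrier, lay at 8.60 to 8.86 in B20 and 8.96 to 9.12 in B18 (-0.33). These were the 2 of 146 solute carriers whose lines did not overlap, as for 2.09% of all genes, and Slc25a11 was named after its values were seen. Among amino acid carriers Slc6a9 (0.55) was higher and Slc32a1 (-0.50) lower in B20, among metal carriers the mitochondrial iron carrier Slc25a37 (0.30) was higher and the zinc importer Slc39a10 (-0.41) lower, and among sugar carriers Slc37a3 (0.42) was higher and Slc2a1 (-0.27) lower. The probes of Slc11a1 disagreed when tested singly, with 0.19 for the brighter (adjusted p = 0.044) and -0.36 for the dimmer (adjusted p = 0.041). No other solute carrier had probes past the threshold in opposite directions. In B20 against B18, 23 solute carriers with several probes had at least 1 past the threshold, and 17 of these also had 1 that was not. Such mixed results held for 13 of 15 in R2i against PD, 14 of 18 in R2i against 2i and 9 of 12 in 2i against PD.

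In C17 and B4, R2i against PD called 0 solute carriers in limma, where 0.136% of all genes were called, and 18 of 133 had an unadjusted p below 0.05, as did 9.02% of all genes. Each medium held 1 array per line, so the lines were the replicates and 2 residual degrees of freedom remained. The contrast shares no arrays with that in B20 and B18. Of 120 genes in both sets 28 had been called in B20 and B18, and 17 of them (60.7%) had the same sign in C17 and B4; over all genes it was 1100 of 1517 (72.5%). The log2 changes in B20 and B18, and in C17 and B4, were 0.54 and 0.54 for Slc4a1, -0.67 and -0.49 for Slc6a15, -0.62 and -0.34 for Slc31a2 and -0.37 and -0.55 for Slc29a1, which kept their sign. They were -0.31 and 0.40 for Slc2a1, -0.32 and 0.10 for Slc2a3, -0.62 and 0.24 for Slc44a1 and 0.39 and -0.27 for Slc11a1, with opposite signs. Slc32a1 and Slc38a8 did not pass the detection rule in C17 and B4.

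Slc40a1, the iron exporter, was detected in SB alone. Its log2 intensity was 5.10 in C17 and 5.0 in B4 in R2i, 4.46 and 4.78 in PD, and 7.40 and 7.24 in SB. The 2 SB arrays lay above all others, and it passed the detection rule through them alone. Against SB its level was lower by at least 4.72-fold in R2i and by at least 4.73-fold in PD, given as a description. With all probes tested regardless of detection, neither comparison passed in limma (adjusted p = 0.14 and 0.053). In R2i against SB, which sets PD added to SB against SB alone, 1 of 133 solute carriers was higher and 4 lower (Slc40a1 included), where 1.02% of all genes were higher and 1.18% lower. In PD against SB 5 were higher and 5 lower (Slc40a1 included), where 2.78% were higher and 2.45% lower.

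The nucleoside carrier Slc29a1 and the anion exchanger Slc4a1 were lower in both media that hold PD. Slc29a1 had 8.85 in C17 and 8.49 in B4 in R2i, 9.12 and 9.33 in PD, and 10.41 and 9.67 in SB, and neither medium overlapped SB. R2i against SB gave -1.37 ± 0.20 (SE, adjusted p = 0.011, and 0.055 without the C17 R2i array), and PD against SB gave -0.82 (adjusted p = 0.049, lost without either C17 array of that pair). Slc4a1 had 6.09 in C17 and 6.72 in B4 in R2i, 5.42 and 6.30 in PD, and 6.62 and 7.50 in SB, with -0.66 for R2i against SB (adjusted p = 0.048, lost without any 1 of its 4 arrays) and -1.20 for PD against SB (adjusted p = 0.0015). Slc30a2, which moves zinc into vesicles, had 5.68 and 6.08 in R2i, 4.86 (not detected) and 5.53 in PD, and 5.58 and 6.60 in SB, in C17 and B4 in that order, with -0.89 for PD against SB (adjusted p = 0.014, lost without the C17 PD array or the B4 SB array). In R2i against SB the mitochondrial nucleotide carrier Slc25a33 was lower (-0.76, adjusted p = 0.043) and the scaffold gene Slc9a3r2 higher (0.74, adjusted p = 0.038), both calls lost without the C17 R2i array among others. In PD against SB Slc9a3r2 (0.73), Slc6a15 (0.75), the anion exchanger Slc4a3 (0.79) and the mitochondrial citrate carrier Slc25a1 (0.67) were higher, Slc41a3 was at least 1.28-fold higher, and Slc6a9 (-0.74) was lower, and each of these 6 was lost in at least 2 of the fits that left out 1 array. Slc2a1 passed neither comparison, with 12.09 in C17 and 12.16 in B4 in R2i, 11.42 and 12.02 in PD, and 11.72 and 12.16 in SB. Of 15 measured partner genes 0 passed in limma in either comparison.

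**Figure D4:**
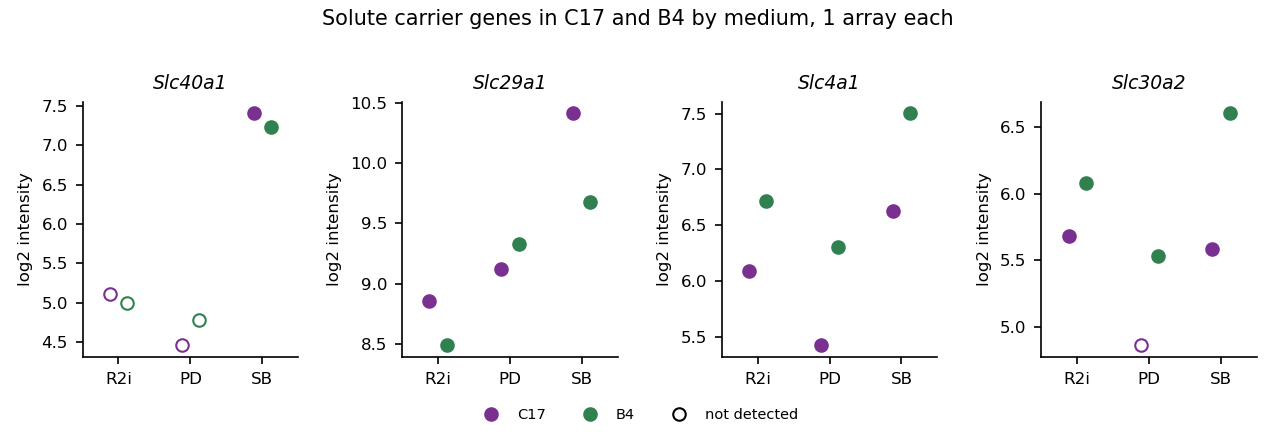
Normalised log2 intensity of Slc40a1, Slc29a1, Slc4a1 and Slc30a2 in C17 (purple) and B4 (green) in R2i, PD and SB, with 1 array per point and open points where the probe was not detected. Slc40a1 lies at 7.40 and 7.24 in SB and at or below 5.10 elsewhere, where it was not detected.

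C17, the BALB/c line, had 16 solute carriers higher and 38 lower than B4, the C57BL/6 line, with 15% of all genes tested higher and 16.7% lower, and 3 of the 38 were at least 2-fold lower (1.35% of all genes). Strain, line and array position cannot be told apart here. Slc10a3, of the bile acid carrier family, had 6.26, 6.12 and 5.93 in C17 in R2i, PD and SB, against 7.55, 7.59 and 7.49 in B4, a change of -1.44 ± 0.12 (SE, adjusted p = 1.1e-04). Slc6a8, the creatine carrier, had 8.51, 8.26 and 8.68 in C17, against 9.93, 9.78 and 9.89 in B4 (-1.38 ± 0.12 SE, adjusted p = 1.1e-04). Slc28a1 had 8.37, 7.59 and 7.31 in C17, against 9.14, 8.93 and 8.75 in B4 (-1.19, adjusted p = 5.1e-04). None of the 3 overlapped between the lines.

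By class, amino acid carriers were 2 higher and 3 lower of 16 in C17, metal carriers 4 and 6 of 22, sugar carriers 2 and 4 of 8, and the others 8 and 25 of 87. Slc7a3, a carrier of arginine and lysine, had 12.41, 12.15 and 12.11 in C17 in R2i, PD and SB, against 13.05, 13.34 and 13.22 in B4 (-0.99, adjusted p = 8.5e-04), and Slc38a4 was higher in C17 (0.99, adjusted p = 4.9e-04), where 3 of 3 arrays detected it, against 1 of 3 in B4. Among zinc carriers Slc30a1 (-0.66), Slc30a2 (-0.70), Slc30a7 (-0.72) and Slc39a4 (-0.47) were lower in C17 and Slc30a3 (0.90), a vesicle loader known from neurons, was higher. In all 3 of 6 Slc30 genes were higher and 3 lower, and of 8 Slc39 genes 0 were higher and 3 lower (Slc39a13 included). Slc5a1, a sodium-coupled glucose carrier, was at least 1.29-fold lower in C17, where 0 of 3 arrays detected it, and Slc2a6, a facilitative glucose carrier, was at least 1.42-fold higher, with 0 of 3 B4 arrays detecting it. Slc2a3 was lower in C17 (-0.50, adjusted p = 0.010, and 0.091 without the PD array of either line), and Slc2a1 did not pass (-0.37, adjusted p = 0.059), though it did in 7 of 13 alternatives (lowest adjusted p = 0.016).

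The solute carrier genes on the X chromosome were examined after the values were seen. Of 6 such genes 5 were lower in C17 and 0 higher, with a median log2 change of -0.85: besides Slc10a3, Slc6a8 and Slc7a3 these were Slc35a2, a UDP-galactose carrier (-0.72), and Slc25a5, an ATP and ADP carrier of mitochondria (-0.68), while Slc25a14 gave -0.27 (adjusted p = 0.22). Of 119 solute carriers mapped to other chromosomes 26.1% were lower, with a median of -0.07. Over all genes tested 52.7% of those on X were lower (median -0.42) and 16% of those elsewhere (median -0.01). In B20 against B18, 2 of 7 X-linked solute carriers were higher and 1 lower, with a median of 0.11. Of 286 genes on X 55 were higher and 24 lower, with a median of 0.05.

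**Figure D5:**
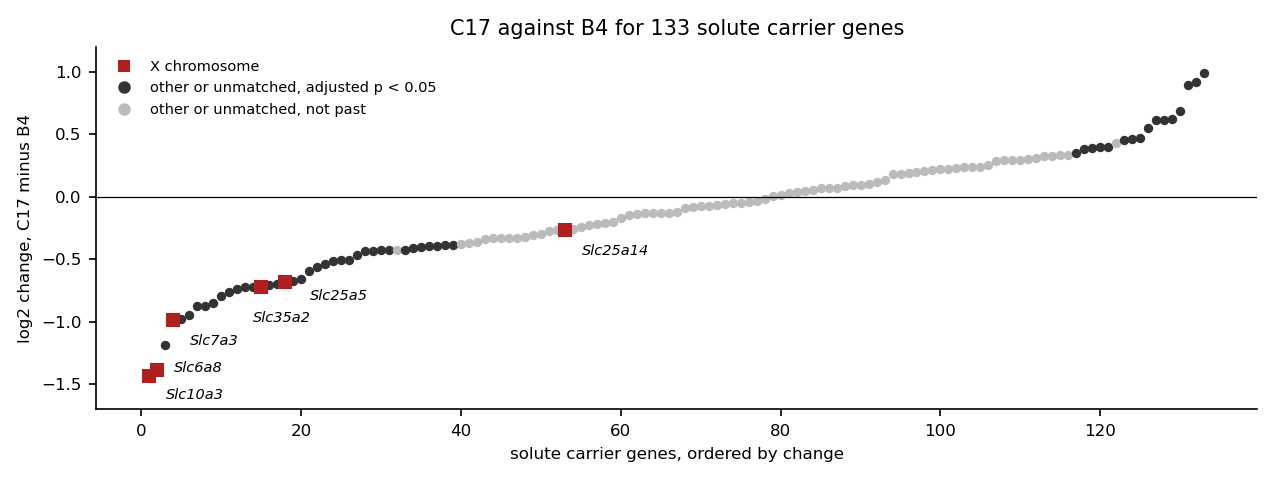
The 133 solute carrier genes of C17 and B4 ordered by their log2 change (C17 minus B4, vertical axis); each point is a gene, squares mark the 6 genes on the X chromosome, and dark points passed an adjusted p below 0.05. The squares lie between -1.44 and -0.27.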

How the data were processed

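Total RNA was hybridised to Illumina MouseRef-8 (B20 and B18) and MouseWG-6 (C17 and B4) arrays. The deposited intensity of each probe is a mean bead signal without background subtraction, and the deposited detection p-value sets it against negative control beads, per the file headers. GenomeStudio and limma are named in the submitters' processing notes. The authors' deposited log2 values, whose normalisation is not given in the sources used here, served as an alternative.

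Intensities of each platform were processed separately with neqc (normexp on negative controls, offset 16, quantile normalisation, log2) in limma 3.58.1 under R 4.3.3. The offset understates changes of dim probes. Probes with a detection p below 0.01 on at least 2 arrays were kept, the brightest standing for its gene, and symbols were updated with the RefSeq gene table. B20 and B18 were fitted as 6 line and medium groups with equal weight per line, and C17 and B4 with additive line and medium; lmFit and eBayes gave p-values, adjusted (Benjamini-Hochberg) over all genes and called below 0.05. The fits were tested on simulated data.

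Members and lists were chosen with earlier results of these data known, and 4 genes that are no transporters were reclassed after their values were seen. Genes named are Slc40a1, Slc2a1, Slc7a5 and Slc16a3, up to 6 per substrate class with the largest change past the threshold and the same direction in both lines, the 5 largest line differences, genes whose probes disagree, and the 4 partners with the largest change; genes beyond this rule were named after their values were seen. Same-numbered arrays did not deviate together (correlations of -0.08 to 0.13), so replicate numbers were not used for pairing. Alternatives covered background correction, scaling, offset, filter, probe choice, variance model, replicate number and each array left out.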

Additional observations from a re-analysis of the deposited data

Results flagged for a closer look

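In several solute carriers the change with medium differed between lines B20 and B18, by a test of that difference in limma with Benjamini-Hochberg adjustment over all genes; line and chip cannot be told apart. In R2i against PD it passed for 9 of 146 solute carriers, 1 of which, Slc7a9, is given without its test. The log2 change of Slc32a1 was -0.64 in B20 and -1.62 in B18, a difference of 0.97 (adjusted p = 4.6e-04). The scaffold gene Slc9a3r2 fell less in B20, with -0.41 in B20 and -1.15 in B18 (difference 0.74, adjusted p = 0.012). Slc25a44, a mitochondrial carrier of branched-chain amino acids, changed by 0.50 in B20 and -0.22 in B18 (difference 0.73, adjusted p = 0.011). Slc12a8 changed by 0.84 in B20 and -0.17 in B18 (difference 1.01, adjusted p = 0.029), and the bicarbonate carrier Slc4a8 by 0.81 and 0.01 (difference 0.80, adjusted p = 0.022). The nucleoside carrier Slc29a4 changed by -0.13 in B20 and -0.66 in B18 (difference 0.53, adjusted p = 0.035). In the opposite sense, Slc7a8 changed by -0.05 in B20 and 0.64 in B18 (difference -0.68, adjusted p = 0.020) and Slc25a39, a mitochondrial glutathione carrier, by -0.10 and 0.43 (difference -0.53, adjusted p = 0.028). Slc7a9 gave 0.31 and 1.01 (difference -0.70), but it passed the detection rule through 2 B18 R2i arrays alone, so it had to differ in this sense.

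In 2i against PD the difference between the lines passed for 6 of 146, 1 of which, Slc38a5, is given without its test. Slc32a1 changed by -0.43 in B20 and -1.28 in B18 (difference 0.85, adjusted p = 0.0061) and Slc2a1 by -0.11 and -0.92 (difference 0.81, adjusted p = 0.048). Another 2 genes had opposite signs with the higher value in B20: the amino acid exchanger Slc7a6 with 0.26 in B20 and -0.58 in B18 (difference 0.83, adjusted p = 0.045) and the nucleoside carrier Slc29a3 with 0.55 and -0.31 (difference 0.87, adjusted p = 0.045). Slc4a1 had the reverse, with -0.65 in B20 and 0.40 in B18 (difference -1.05, adjusted p = 0.026). The glutamine carrier Slc38a5 gave 0.57 and -0.22 (difference 0.78), and its 2 detected arrays, 1 of B20 in 2i and 1 of B18 in PD, both lie on the side that makes this difference. Under all 24 alternatives the differences of Slc32a1 in both comparisons and of Slc9a3r2 and Slc25a44 in R2i against PD stayed past the threshold. Of the same 24 alternatives, the difference of Slc2a1 was lost in 16, those of Slc29a4 and Slc29a3 in 14 each, that of Slc7a6 in 13, Slc12a8 in 11, Slc25a39 in 10 and Slc4a8 in 8. Of 23 alternatives, that of Slc4a1 was lost in 6 and that of Slc7a8 in 5.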

How the results depend on the processing

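No called change turned its sign under any alternative run, and no scaling moved the median change of all genes by more than 0.1. For the 131 named changes that were called, 2496 of 2786 alternatives kept the call and 290 lost it. For the 9 that were not called, 136 of 150 left them so with the same sign, 7 gave a call (all for Slc2a1 in C17 against B4) and 7 turned the sign without a call. Those were Slc2a1 in R2i against 2i in B20 alone (-0.0034), Slc2a1 in R2i against SB without the C17 R2i array (-0.045, up to 0.410 with another array left out), and Slc40a1 in C17 against B4 without background correction (0.0109), with median scaling (0.0337), with an offset of 50 (0.0168) and without the PD array of either line (0.134, down to -0.112 with another array left out). From the same fit, R2i against PD called 12 solute carriers in B20 alone, R2i against 2i 29 in B20 alone and 27 in B18 alone, and B20 against B18 28 within R2i, 9 within 2i and 34 within PD. The difference between the lines in R2i against 2i had 2 calls without background correction, 2 with an offset of 50, 1 with probes detected on every array and 1 with an intensity trend; that in 2i against PD had 3 with median scaling, 1 without the filter, 11 with an intensity trend and 3 with all probes tested singly. In C17 and B4, R2i against SB called 2 without background correction, 8 with an offset of 50 and 0 without the filter, and PD against SB 4 without background correction and 0 without the filter; without the filter all probes share the adjustment and the variance prior.

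With the replicate number as a block, R2i against PD had 36 calls, R2i against 2i 44 and 2i against PD 31, and the differences between the lines 8, 0 and 3 for those comparisons; the numbers share no known batch. The block was not applied to B20 against B18, since numbers belong to a line.

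With each array left out in turn, calls ranged over 30 to 41 for R2i against PD, 41 to 52 for R2i against 2i, 27 to 36 for 2i against PD and 46 to 61 for B20 against B18. The differences between the lines ranged over 3 (without the third B18 PD array) to 13 (without the third B20 PD array) for R2i against PD, 0 to 4 (without the second B20 2i array) for R2i against 2i, and 2 (without the first B18 2i array) to 10 (without the third B20 PD array) for 2i against PD. In C17 and B4 they ranged over 0 to 1 (without the B4 SB array) for R2i against PD, 1 (without the C17 R2i array) to 9 (without the B4 SB array) for R2i against SB, 4 (without the C17 PD array) to 12 (without the B4 SB array) for PD against SB, and 39 to 50 for C17 against B4; a lone array was then assumed to vary like the others. The causes were not tested. Dim probes near the negative controls limit what can be said of Slc40a1, Slc16a3, Slc7a9 and Slc37a1.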
